A study of Mus musculus with 2 samples.

Results

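Goblet cells are the mucus-secreting cells of the intestinal epithelium. They fill their apical granules with the gel-forming mucin Muc2 and with smaller proteins such as the trefoil peptide Tff3, Fcgbp, Spink4 and the Muc2-folding factor Agr2, and they share a secretory progenitor with the lysozyme- and defensin-producing Paneth cells of the crypt base. The transcription factor Atoh1 opens this secretory path and Spdef carries it on towards goblet maturation. Here the cells rich in Tff3 and poor in lysozyme were followed across genes in single-cell RNA-seq of mouse small intestinal enteroids, which are epithelial cultures grown from isolated crypts.

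The cells came from 1 control library and 1 Taf4 KO library. Taf4 is a subunit of TFIID, the general transcription factor that binds core promoters. Both cultures started from ileal crypts of mice 4 months old on a mixed C57Bl6/129sv background, and live single cells were captured on a 10X Genomics platform that counts transcripts at their 3′ end. In the Taf4 KO culture both Taf4 alleles were flanked by lox sites and the recombinase CreERT2 was driven by the villin promoter, which is active in the intestinal epithelium. It received 1 µM 4-hydroxytamoxifen (4-OHT) for 3 days, and the methods place this between day 5 and day 8 of culture. For the control the methods give lox-flanked Taf4 without Cre under the same 4-OHT treatment, whereas the label of the library gives WT cells with ethanol, so the 2 sources differ on its genotype and on whether it saw 4-OHT. With 1 library per condition no difference between the conditions could be tested, and all intervals (95%) cover counting error only.

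Members were chosen by their own counts of Tff3, Lyz1, the hormone-cell genes and all genes together. A cell needed at least 2000 unique molecular identifiers (UMIs), at least 50 Tff3 UMIs per 10000 UMIs of the cell, under 20 Lyz1 UMIs per 10000, and under 10 per 10000 for the summed hormone-cell genes Chga, Chgb, Cpe and Neurod1. The rule found 271 of 4374 cells, 188 in the control and 83 in the Taf4 KO library. All levels below are UMIs per 10000 of all genes, pooled over the members of a library unless a value per cell is named.

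**Figure D1:**
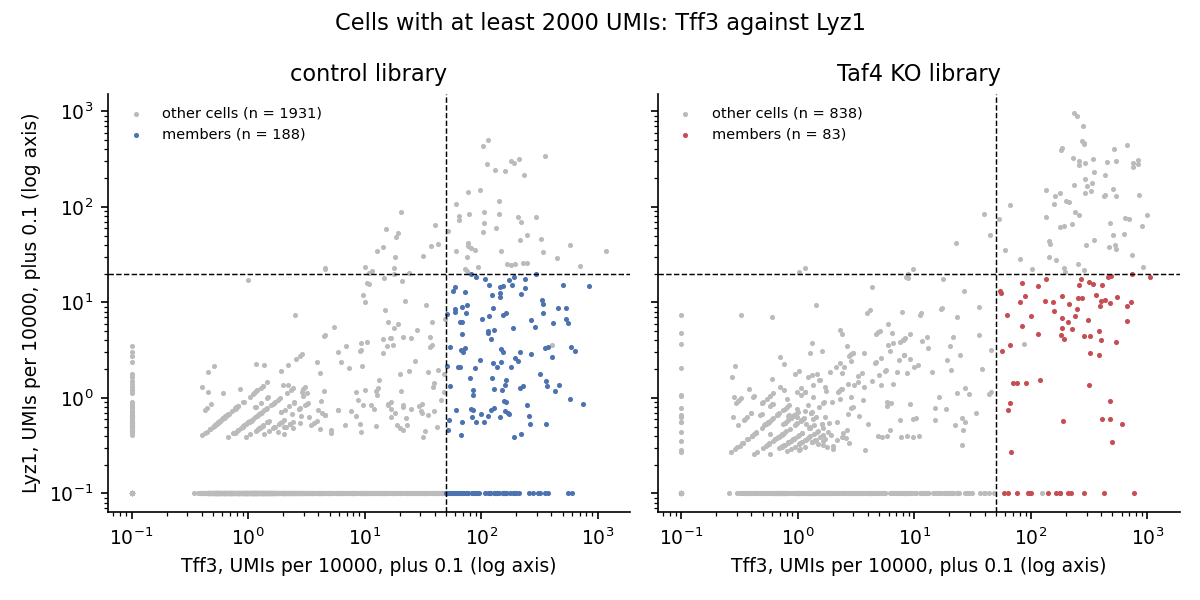
Each point is 1 cell with at least 2000 UMIs, with Tff3 (x axis) and Lyz1 (y axis) in UMIs per 10000 plus 0.1 on log axes, for the control (left) and the Taf4 KO library (right). Dashed lines mark the limits of 50 and 20, the 188 and 83 members lie in the lower right, and the grey cells above them are those that the Lyz1 limit of 20 left out.

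The control members held 3268784 UMIs and the Taf4 KO members 2009012. The median control member had 16840 UMIs and the median Taf4 KO member 26252. The Taf4 KO members were more uneven in depth, with 22.9% of them under 5000 UMIs against 5.85% of the control members. Mitochondrial UMIs took a median of 6.53% and 5.10% of a member. The 2 libraries shared 2 cell barcodes, and no barcode marked a member in both.

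The members made up the same share of the deep cells in both libraries within counting error. They were 8.87% of the 2119 control cells with at least 2000 UMIs (7.70 to 10.2) and 9.01% of the 921 Taf4 KO cells (7.24 to 11.0), a difference of 0.14 points (-2.05 to 2.49). The steps of the rule did not divide the libraries alike. Of the deep cells with Tff3 at 50 or more, 242 in the control and 158 in the Taf4 KO library, the Lyz1 limit removed 49 (20.2%, 15.4 to 25.9) and 73 (46.2%, 38.2 to 54.3). The hormone limit removed 5 and 2 more. The minimum depth also mattered, since 24 control and 122 Taf4 KO cells under 2000 UMIs passed every other limit. Over all cells of any depth the members were 7.34% of the control and 4.58% of the Taf4 KO cells, a difference of -2.75 points (-4.17 to -1.30). The cells nearest the limits had 50.3 (member) and 49.1 (non-member) Tff3 UMIs per 10000 in the control and 54.7 and 47.8 in the Taf4 KO library. For Lyz1 they had 19.6 and 21.5 in the control and 19.6 and 20.9 in the Taf4 KO library.

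The members carried the goblet markers that the rule did not use. Thinned to 2000 UMIs each, so that depth could not set the counts, 60.6% of the control members (53.3 to 67.7) and 77.1% of the Taf4 KO members (66.6 to 85.6) had a UMI of at least 3 of the 4 genes Muc2, Fcgbp, Spink4 and Agr2. None of the 89 control and 102 Taf4 KO cells set apart by the enterocyte gene Apoa1, which should lack goblet products, did so (0%, up to 4.06 and 3.55). At full depth every member had a UMI of at least 1 of the 4. Fcgbp was found in 89.4% of thinned control and 92.8% of thinned Taf4 KO members against 12.4% and 3.92% of the Apoa1 cells. Spink4 was found in 88.8% and 94% against 11.2% and 23.5%. Muc2 was found in 21.3% and 48.2% against 2.25% and 0.98%. The shares in the Apoa1 cells, whose median depth was 22578 and 40705 UMIs before thinning, are those of cells chosen to be low in Tff3. The members lay above them for each gene. Without thinning, Muc2 had a UMI in 45.2% of the control and 62.7% of the Taf4 KO members.

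A part of the members also carried Paneth transcripts, so the name goblet cell does not hold for all of them by these genes. Defa24, an antimicrobial alpha-defensin, was among their most abundant transcripts, with 93.9 UMIs per 10000 in the control and 126 in the Taf4 KO members. The defensins lay in a minority of the cells. Summed over the family, 49 control members (26.1%, 19.9 to 33) and 25 Taf4 KO members (30.1%, 20.5 to 41.2) had 20 or more defensin UMIs per 10000, and these cells held 99.1% and 99.4% of all defensin UMIs of the members. The median member was at 1.35 in the control and 1.62 in the Taf4 KO library, against 0.68 and 0.43 in the Apoa1 cells, and the highest members reached 3492 and 2247. In 8 control and 2 Taf4 KO members the sum was between 10 and 40, near that cut. Defensin genes are close copies of each other, so the reads of single genes are uncertain and their sum is the firmer value. The cells are therefore called Tff3-high, Lyz1-low cells here.

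**Figure D2:**
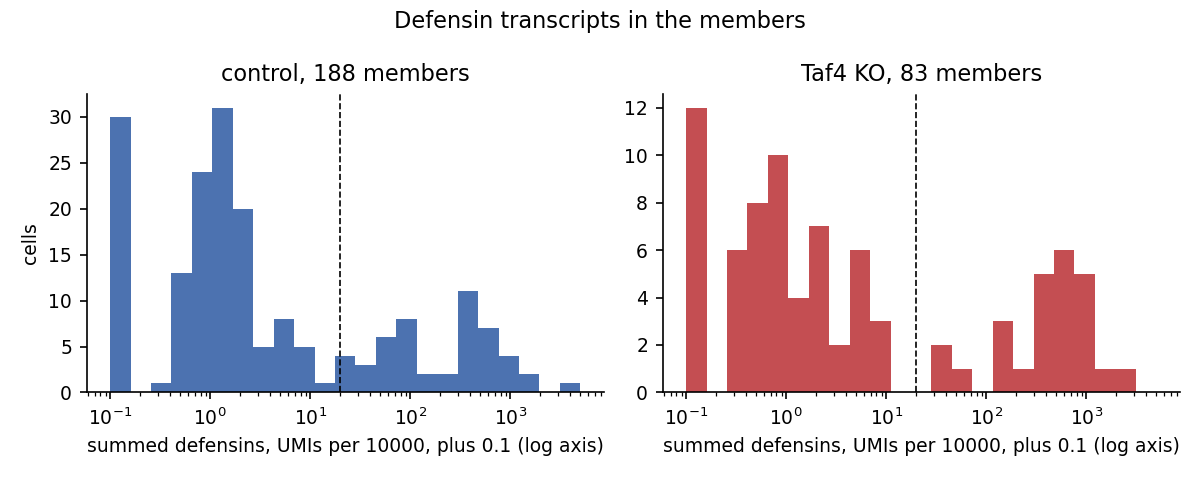
Histograms of the summed defensin UMIs per 10000 plus 0.1 (log x axis) in the 188 control members (left) and the 83 Taf4 KO members (right), with the number of cells on the y axis and a dashed line at 20. Most members lie near or below 10, and 49 and 25 cells lie at or above 20.

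The promoters of goblet product genes give the sequence context of the genes that the comparison turns on. Of the 21 listed products, 11 had an entry in the RefSeq promoter table for GRCm38.p6, the assembly of the mm10 build that the authors used. The windows were searched for the E-box forms CAGCTG and CAGATG on both strands, the kind of site that basic helix-loop-helix factors such as Atoh1 bind. Of these 11 genes 6 held either form in the 250 bases before the start, and 25.5% of the 32851 promoters in the table did (13.0% for CAGCTG and 14.4% for CAGATG). Shown here, 5′ to 3′ along the gene with the matches in capitals, are the windows of the 3 products with the highest Taf4 KO to control ratios among those with a match, Muc2 (chr7:141690090-141690339, plus strand), Fcgbp (chr7:28070986-28071235, plus strand) and Ang4 (chr14:51773591-51773840, minus strand).
Muc2: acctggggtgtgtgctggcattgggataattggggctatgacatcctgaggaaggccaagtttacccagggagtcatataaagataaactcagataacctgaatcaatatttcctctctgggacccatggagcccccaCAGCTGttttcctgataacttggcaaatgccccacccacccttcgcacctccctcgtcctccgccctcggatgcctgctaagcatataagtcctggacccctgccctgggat
Fcgbp: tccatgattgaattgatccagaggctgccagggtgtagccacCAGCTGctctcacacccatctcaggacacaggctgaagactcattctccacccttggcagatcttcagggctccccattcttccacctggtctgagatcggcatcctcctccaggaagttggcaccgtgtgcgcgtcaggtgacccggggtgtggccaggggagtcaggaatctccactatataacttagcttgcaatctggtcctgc
Ang4: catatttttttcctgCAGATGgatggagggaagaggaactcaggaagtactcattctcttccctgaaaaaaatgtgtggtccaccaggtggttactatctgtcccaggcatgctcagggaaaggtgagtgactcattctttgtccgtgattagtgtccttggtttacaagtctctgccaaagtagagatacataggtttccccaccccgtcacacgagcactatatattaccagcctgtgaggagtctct
The match lay 112 to 107 bases before the start in Muc2, 208 to 203 in Fcgbp and 235 to 230 in Ang4. The other genes with a match were Klk1, Ccl9 and Lypd8. Their Taf4 KO to control log2 ratios were below 0 (-0.78, -2.91 and -0.79), and Ccl9 did not reach 100 UMIs. The windows of Agr2 and Itln1 held neither form, and their ratios were above 0 (0.55 and 2.35). The 25.5% is a share of promoters, whereas the 6 of 11 counts genes. A link between matches and ratios was not tested.

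The goblet products themselves were higher in the Taf4 KO members. Summed over the list without Tff3, the gene of the rule, they took 193 of 10000 UMIs in the control (192 to 195) and 521 in the Taf4 KO members (518 to 524), a log2 ratio of 1.43 (1.42 to 1.44). Per cell this sum ran from 3.83 over a median of 143 to 1153 in the control and from 2.21 over a median of 358 to 1783 in the Taf4 KO members, so the ranges overlapped broadly. Tff3 itself is a large part of the full sum of 370 and 835. Of the 21 listed products 11 reached 100 UMIs over both libraries. Of the 10 other than Tff3, 7 were at least 2-fold higher and none at least 2-fold lower. Ccl9, a listed product that did not reach 100 UMIs and so was not counted, had a log2 ratio of -2.91 (-0.82 after thinning). Over all 4917 genes with 100 UMIs, 2.46% were at least 2-fold higher (121 genes) and 1.85% at least 2-fold lower (91 genes). An alternative total left out the goblet products, the mitochondrial and ribosomal protein genes, Gm42418 and AY036118. With this reduced total the numbers higher and lower were 100 and 104, and with ratios centred on the median 93 and 108. The median log2 ratio was 1.31 with Tff3 and 1.64 without it, against 0.08 for all genes tested, of which 58.3% had a ratio above 0 and 41.7% below. The rule set a floor on Tff3 in both libraries, so the ratio of Tff3 itself, 0.83 (177 to 314 UMIs per 10000), is a description of the cells that were chosen.

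Among the single products, Muc2, the gel-forming mucin of the mucus layer (chromosome 7, 141690340 to 141754691 in GRCm38, as all positions here), had 1.79 UMIs per 10000 in the control (1.65 to 1.94) and 9.85 in the Taf4 KO members (9.42 to 10.3). Its log2 ratio was 2.46 (2.33 to 2.60). Per cell it ran from 0 over a median of 0 to 18.8 in the control and from 0 over a median of 2.34 to 54.9 in the Taf4 KO members. The difference lay in the upper cells, with 10 control (5.32%) and 26 Taf4 KO members (31.3%) at 10 or more. Spink4, a small secreted peptide of goblet granules (chromosome 4, 40920056 to 40931395), had 119 and 294, a log2 ratio of 1.31 (1.29 to 1.33). Its cells ran from 0 over 79.4 to 753 in the control and from 0.26 over 201 to 1091 in the Taf4 KO members, and 71.1% of the Taf4 KO members lay above the control median. Fcgbp, a large mucus protein (chromosome 7, 28071236 to 28120864), had 21.0 and 46.2, a log2 ratio of 1.14 (1.09 to 1.18) that was 0.93 with equal weight per cell and 0.95 after thinning. Its cells ran from 0 over 16.2 to 83.7 and from 0.24 over 26.9 to 170. Agr2, the endoplasmic reticulum protein that Muc2 needs for folding (chromosome 12, 35992925 to 36004081), had 19.9 and 29.2, a log2 ratio of 0.55 (0.50 to 0.60) that stayed under 2-fold.

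Ang4 and Itln1, antimicrobial products of the crypt, differed in how many cells used them. Ang4, a secreted ribonuclease (chromosome 14, 51763892 to 51773590), had 15.3 in the control and 60.2 in the Taf4 KO members, a log2 ratio of 1.98 (1.93 to 2.03). Per cell Ang4 ran from 0 over a median of 0.62 to 310 in the control and from 0 over 28.9 to 606 in the Taf4 KO members. Ang4 was at 10 or more in 50 control members (26.6%, 20.4 to 33.5) and 53 Taf4 KO members (63.9%, 52.6 to 74.1). Itln1, a lectin that binds microbial sugars (chromosome 1, 171518123 to 171535325), had 9.46 and 48.4, a log2 ratio of 2.35 (2.30 to 2.41). Itln1 was at 10 or more in 28 control members (14.9%, 10.1 to 20.8) and 51 Taf4 KO members (61.4%, 50.1 to 71.9). Its median per cell was 0.15 in the control and 18.4 in the Taf4 KO members, and 85.5% of the Taf4 KO members lay above the control median. Thinned to equal depth, Itln1 was still found in 28.7% of control and 72.3% of Taf4 KO members, against 1.12% and 11.8% of the Apoa1 cells.

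Zg16 and Clca1 rested on few cells. Zg16, a lectin of the inner mucus that binds bacterial cell walls, had a log2 ratio of 4.70 (4.55 to 4.86), from 1.09 to 28.3 UMIs per 10000, but 1 cell held 69.9% of its control UMIs and 1 cell 44.7% of its Taf4 KO UMIs. The highest Taf4 KO members had 612, 542 and 405 per 10000, the highest control members 61.9, 38.2 and 14, and the median of both groups was 0. Without the cell that held most UMIs in each library the ratio was 5.59, and over the other alternatives it ran from 3.83 to 6.46. Clca1, a mucus protease, had 7 and 282 UMIs, of which 1 cell held 57.1% and 73.0%, and its ratio of 6.03 (4.97 to 7.36) became 5.39 without those cells, 3.68 after thinning and 8.59 without members of mixed identity. On the other side, Lypd8, an epithelial protein that holds flagellated bacteria off, was lower in the Taf4 KO members, 5.42 against 3.14 (log2 ratio -0.79, -0.92 to -0.66), and so was the kallikrein Klk1, 0.45 against 0.26 (-0.78, -1.26 to -0.32). Muc13, a mucin of the cell surface rather than of the granule, had a log2 ratio of 0.76 (0.63 to 0.89).

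**Figure D3:**
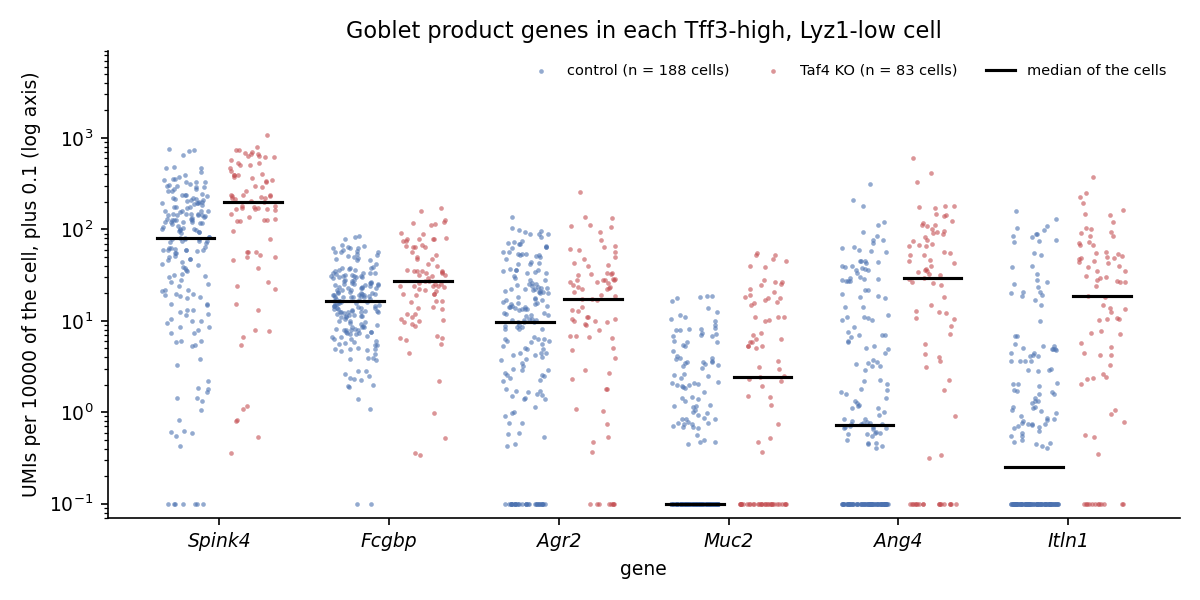
Each point is 1 member, control in blue and Taf4 KO in red, with the level of 6 goblet product genes on a log y axis (UMIs per 10000 plus 0.1) and a black bar at the median of the cells. The medians are higher in the Taf4 KO members for all 6 genes (Spink4 79.4 and 201, Itln1 0.15 and 18.4), while the ranges of the 2 libraries overlap for each.

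Cells above the Lyz1 limit also carried the goblet products, most of them within 2-fold of the members. Cells with Lyz1 at 20 or more, called lysozyme cells here, numbered 67 in the control and 79 in the Taf4 KO library, and 49 and 73 of them were Tff3-high. Within the control library 36 of 4233 genes were at least 2-fold higher in the members (0.85%) and 10 at least 2-fold lower (0.236%). Within the Taf4 KO library 24 of 4298 were higher (0.558%) and 24 lower (0.558%). Of the goblet products 1 of 10 tested was 2-fold higher in the control members (Klk1) and 1 lower (Itln1, 9.46 against 25.4), and in the Taf4 KO library none of 11 passed 2-fold either way. Muc2 was at 1.79 in the members and 1.85 in the lysozyme cells of the control, and at 9.85 and 9.89 in those of the Taf4 KO library. Fcgbp was at 21.0 and 20.5 in the control and at 46.2 and 48.1 in the Taf4 KO library. The members and the lysozyme cells of a library thus lay closer to each other in Muc2 and Fcgbp than either set did to the same set of the other library. Other products differed more between the sets. In the Taf4 KO library Itln1 was at 48.4 in the members and 89.9 in the lysozyme cells, and Ang4 at 60.2 and 84.1. Spink4 was at 294 and 350 there, and Zg16 the other way at 28.3 and 15.8. Ang4 in the control was at 15.3 and 11.2. Without Tff3, the summed products were at 212 in the control and 642 in the Taf4 KO library in the lysozyme cells, at 2.04 and 2.71 in the Apoa1 cells and at 4.91 and 6.18 in all remaining cells. The Apoa1 cells and nearly all remaining cells lie below the Tff3 limit by the rule, so their low levels of products that go with Tff3 are a description. Lyz1 is what divides the 2 sets, and its 2.94 and 6.61 in the members against 97.3 and 180 in the lysozyme cells follow from the rule.

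Members differed widely in Tff3 within each library, and several goblet products were ordered with it. The members were split into 3 classes of equal size by Tff3, which ran from 50.3 to 839 in the control and from 54.7 to 1047 in the Taf4 KO library. Spink4 was at 26.6, 94.9 and 238 from the lowest to the highest class of the control and at 43.5, 204 and 513 in the Taf4 KO library. Muc2 was at 0.20, 1.07 and 4.18 in the control and at 0.28, 4.01 and 19.7 in the Taf4 KO library. In the lowest class the 2 libraries were therefore close in Muc2, and in the highest they were far apart, although each class of the Taf4 KO members also spanned higher Tff3 levels than that of the control. Other genes had no such order, among them Spdef in the control (0.55, 1.06 and 0.88) and Cdkn1a in the Taf4 KO library (5.34, 3.24 and 5.88). The summed genes of proliferation ran the other way. The summed G2/M genes were at 50.5, 24.8 and 12.1 in the control and at 38.6, 30.1 and 10.3 in the Taf4 KO library. The summed S-phase genes were at 11.3, 6.50 and 4.14 and at 8.15, 3.48 and 2.57. Mki67, a marker of dividing cells, was at 1.52, 0.67 and 0.18 in the control and at 0.69, 0.90 and 0.02 in the Taf4 KO library. Dll1, the Notch ligand that secretory precursors show to their neighbours, was at 0.40, 0.29 and 0.07 in the control and at 0.14, 0.40 and 0.10 in the Taf4 KO library. From the lowest to the highest class the median depth was 16825, 17447 and 16571 UMIs for control members and 14902, 17540 and 33377 for Taf4 KO members, and its part in the Taf4 KO order was not tested.

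Across the cells of a library, and as a description since cells share their library and depth, Spearman's rho of Tff3 with Spink4 was 0.72 in the 188 control and 0.80 in the 83 Taf4 KO members. With every cell thinned to 2000 UMIs it was 0.67 and 0.79. Tff3 with Fcgbp gave 0.67 and 0.81 (thinned 0.54 and 0.72), and Tff3 with Muc2 gave 0.57 and 0.71 (thinned 0.49 and 0.63). Guca2a, the precursor of the peptide hormone guanylin, followed Tff3 as well, with 0.65 and 0.79 (thinned 0.55 and 0.78). Spink4 with the summed defensins gave 0.42 and 0.41. The members with 20 or more defensin UMIs had median Spink4 levels of 160 in the control and 473 in the Taf4 KO library, against 54.7 and 148 in the other members. Their median Muc2 was 0.84 and 9.84, against 0 and 0.53. Agr2 was at 13.9 against 6.15 in the control, and the other way in the Taf4 KO library (12.8 against 18.7).

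**Figure D4:**
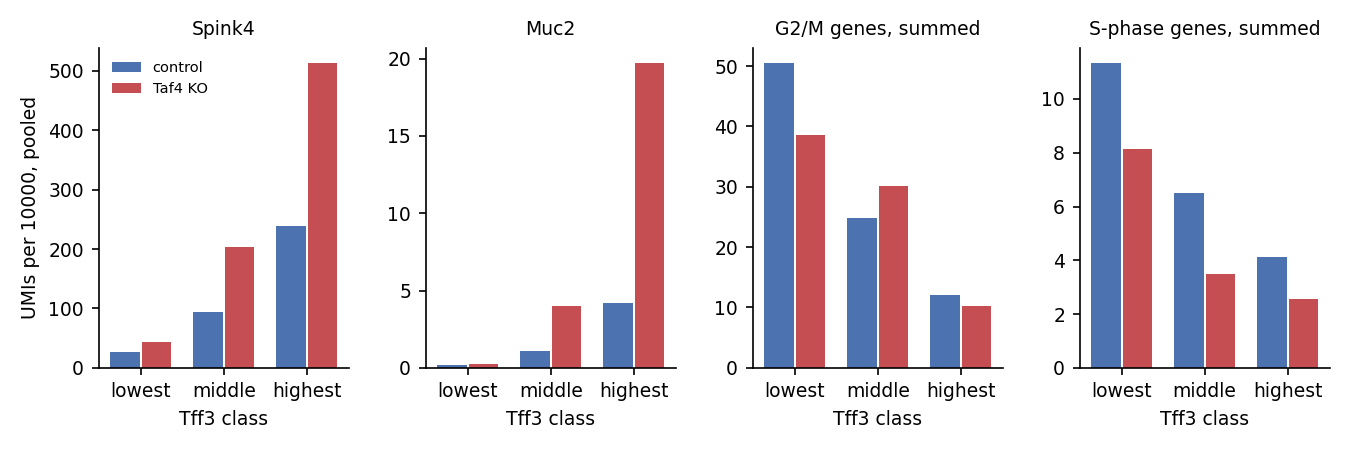
Pooled levels in UMIs per 10000 (y axes, from 0) in the lowest, middle and highest of 3 equal Tff3 classes of the members (x axes) for Spink4, Muc2, the summed G2/M genes and the summed S-phase genes, control in blue and Taf4 KO in red. Spink4 and Muc2 are higher in each class than in the one below in both libraries, and both sums of cell cycle genes are lower in the highest than in the lowest class.

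The machinery around the products did not share their difference. Of 42 tested genes of protein folding and transport in the endoplasmic reticulum, none was at least 2-fold higher and 2 were at least 2-fold lower (1.85% of all genes), and 34 had a ratio below 0 (41.7% of all genes), with a median of -0.24. Their sum was 111 UMIs per 10000 in the control and 92.6 in the Taf4 KO members (log2 ratio -0.26, -0.29 to -0.23). Pdia5, a disulphide isomerase, was at 0.42 and 0.19 (-1.11, -1.66 to -0.59), and Creld2, a stress-induced lumenal protein, at 0.34 and 0.15 (-1.17, -1.81 to -0.58). With Tff3 at 25 or more both fell short of 2-fold, at -0.96 and -0.82. Hspa5, the main lumenal chaperone, was at 5.29 and 4.12 (-0.36, -0.48 to -0.24), and Xbp1, the transcription factor of the unfolded protein response, at 1.89 and 1.54 (-0.30, -0.50 to -0.10). In the other direction Calr, a lectin chaperone, had 0.34 (0.25 to 0.44), and Ern2, an unfolded-protein sensor of mucous cells, had 0.62 (0.25 to 0.99), which was -0.20 after thinning. Of 21 genes of mucin glycosylation, 1 was at least 2-fold higher and 1 lower (2.46% and 1.85% of all genes were), with a median of 0.05. The former was the transferase Galnt4, 0.35 against 0.70 (1.02, 0.65 to 1.39, and 0.29 after thinning), and the latter Gne, the first enzyme of sialic acid synthesis, 0.35 against 0.12 (-1.47, -2.16 to -0.84). Their sum was 20.9 in the control and 21.4 in the Taf4 KO members, so the mucin Muc2 and the enzymes that decorate it stood at different ratios.

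Of the factors that set secretory fate, Atoh1, Spdef and Foxa3 were near the same level in both libraries and others were not. Of 19 tested transcription factors and Notch genes, 1 was at least 2-fold higher and 1 lower, with a median of -0.14. Of all tested genes 2.46% were at least 2-fold higher and 1.85% lower. Atoh1 had 0.59 and 0.53 UMIs per 10000 (log2 ratio -0.17, -0.53 to 0.18), Spdef 0.83 and 0.87 (0.06, -0.22 to 0.34) and Foxa3 0.97 and 0.93 (-0.05, -0.32 to 0.21), so that none of the 3 differed beyond counting error. Bhlha15, which enlarges the secretory apparatus, was at 0.50 and 0.20 (-1.33, -1.87 to -0.83), and its ratio was -0.96 with Lyz1 under 40. Klf4, a factor of goblet maturation, was at 1.58 and 1.18 (-0.42, -0.65 to -0.20). Neurog3, the factor of enteroendocrine precursors, was at 0.51 and 2.58 (2.36, 2.10 to 2.62), and lay at 10 or more in 4 control and 7 Taf4 KO members. Its ratio ran from 1.44 with Tff3 at 25 or more to 3.40 with Tff3 at 100 or more. The sum of this list moved the other way from its median, 17.7 to 21.9, with Sox4, a factor of secretory precursors, at 3.54 and 6.32 (0.84, 0.72 to 0.95). The ratio of Sox4 was 0.25 with Tff3 at 25 or more and 1.92 with Tff3 at 100 or more. Of 11 tested genes of granule release and goblet-enriched transport, 1 was at least 2-fold higher, the ferlin Fer1l6 (0.12 and 0.46, 1.99, 1.43 to 2.58), and 1 lower, the hormone Sct (0.47 and 0.20, -1.21, -1.74 to -0.70), which was -0.98 with Tff3 at 25 or more and -0.94 after thinning. Rab27b, a GTPase of granule docking, had 0.87 (0.56 to 1.18) and 0.03 after thinning, and the median of the list was 0.02.

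**Figure D5:**
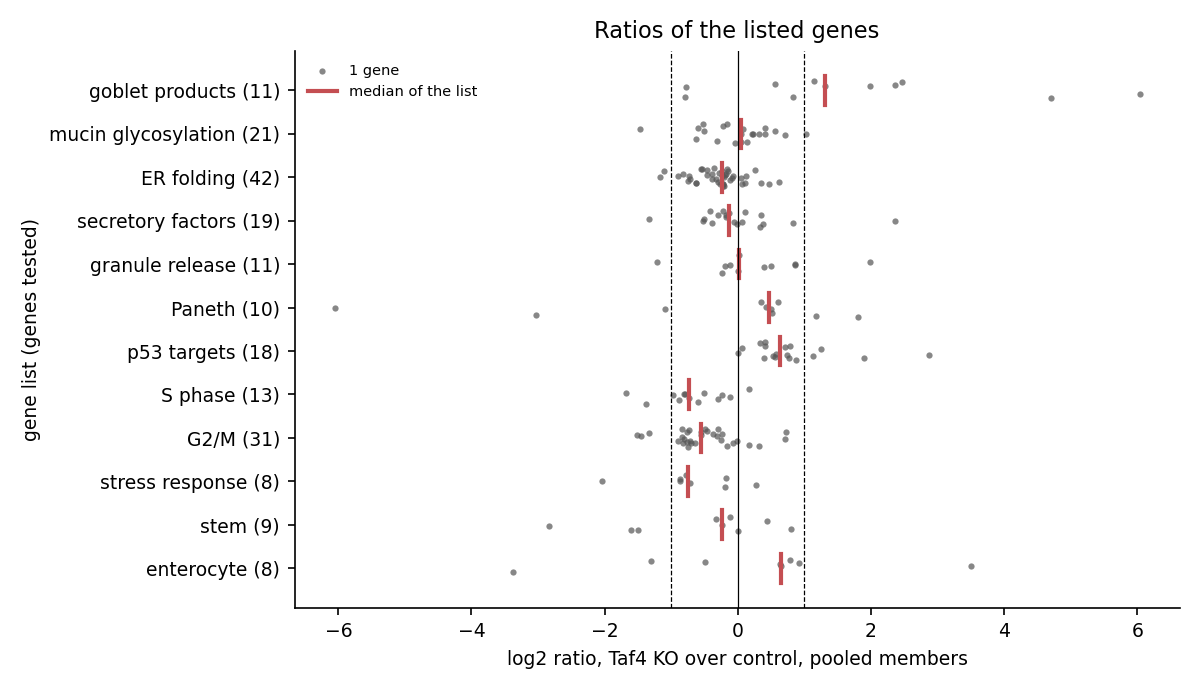
Log2 ratio of Taf4 KO over control in the pooled members (x axis) for each tested gene (grey point) of 12 gene lists (y axis, number of genes tested in brackets), with the list median in red, Defa22 at its bound, a solid line at 0 and dashed lines at 2-fold. The goblet products have a median of 1.31, the p53 targets 0.64 and the S-phase genes -0.73, and the lists of folding, glycosylation and secretory factors have medians between -0.24 and 0.05.

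Targets of p53, the factor that halts or removes cells after DNA damage and other stress, were higher as a group. All 18 tested targets had a ratio above 0 (58.3% of all genes did), 15 of them with an interval above 0, and 4 were at least 2-fold higher (2.46% of all genes were), with a median of 0.64. These 4 were Trp53inp1 (0.09 and 0.69 UMIs per 10000, 2.87, 2.30 to 3.48), the kinase Plk2 (0.24 and 0.89, 1.89, 1.5 to 2.30), Ccng1 (0.92 and 2.17, 1.25, 1.03 to 1.46) and Phlda3, an inhibitor of Akt (0.26 and 0.56, 1.13, 0.71 to 1.56). Cdkn1a, the cell cycle inhibitor p21, was at 2.73 and 5.01 (0.87, 0.74 to 1.00), and its cells ran from 0 over a median of 1.76 to 20.4 in the control and from 0 over 2.63 to 50.9 in the Taf4 KO members. The same targets had a median of 1.00 in the lysozyme cells, 0.26 in the Apoa1 cells and 1.26 in the remaining cells. The difference was thus found beyond the members as well.

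Genes of the cell cycle were lower in the pooled Taf4 KO members, and for many of them in the other cells too. Of 13 tested S-phase genes, 12 had a ratio below 0 (41.7% of all genes did) and 2 were at least 2-fold lower (1.85% of all genes were), with a median of -0.73. These were Mcm6, part of the replicative helicase (0.29 and 0.09, -1.68, -2.50 to -0.94), and Gmnn, an inhibitor of re-replication (0.36 and 0.14, -1.39, -2.03 to -0.78). After thinning neither reached 2-fold, at -0.24 and -0.41. Of 31 tested G2/M genes, 27 were below 0 and 3 at least 2-fold lower, with a median of -0.56, among them Top2a, which untangles chromosomes (0.96 and 0.35, -1.45, -1.84 to -1.07), whose ratio was -0.45 with Tff3 at 100 or more. Few cells carried these transcripts. The summed G2/M genes reached 190 in the highest control and 153 in the highest Taf4 KO member, and the median cell was at 11.2 and 12.7, so that the median of the cells and the pooled sum (29.4 and 23.8) differed in direction. The median of the same lists in the remaining cells was -0.86 and -1.22. Genes of the amino acid and integrated stress response were lower too, with 7 of 8 below 0, 1 of them at least 2-fold, and a median of -0.75. Their median was -0.24 in the lysozyme cells, -0.89 in the Apoa1 cells and -0.76 in the remaining cells. Atf5 was at 0.35 and 0.08 (-2.04, -2.87 to -1.30), Atf4, the central factor of this response, at 1.87 and 1.10 (-0.77, -1.0 to -0.55), and Nupr1 at 12.4 and 6.76 (-0.87, -0.96 to -0.78).

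Among the listed markers of other cell types, the Paneth genes had the highest sums, 115 and 154 UMIs per 10000. Beside the counts below, 2.46% of all tested genes were at least 2-fold higher and 1.85% at least 2-fold lower. Stem markers took 9.67 and 8.36 UMIs per 10000, against 1.51 and 0.82 in the Apoa1 cells and 20.0 and 13.9 in the remaining cells. Of 9 tested stem markers none was 2-fold higher and 3 were 2-fold lower. These 3 were Olfm4 (0.39 and 0.05, -2.84, -3.88 to -1.95), Rgmb and Clca3b, and Rgmb was at -0.83 with Tff3 at 100 or more. Lgr5, the receptor that marks crypt stem cells, was at 1.13 and 0.90 (-0.33, -0.60 to -0.07) and turned to 0.18 after thinning. Enterocyte genes summed to 6.23 and 11.9, against 228 and 231 in the Apoa1 cells. Among them was Anpep, a brush border peptidase, at 0.32 and 3.59 (3.50, 3.2 to 3.81), found in 25 control and 47 Taf4 KO members. Of the 8 tested enterocyte genes, Anpep was 2-fold higher, and Apoa1 and Apoa4 were 2-fold lower, with 53.4% of the control UMIs of Apoa4 in 1 cell. Of 9 tested Paneth genes other than Lyz1, whose ratio of 1.17 the rule truncates, 1 was 2-fold higher, Defa26, and 3 were 2-fold lower, Defa21, Defa22 (both mostly from 1 control cell) and the lipase Pnliprp2 (0.94 and 0.44, -1.10, -1.46 to -0.75), which was at -0.45 without members of mixed identity. Reg4, a secreted lectin of secretory cells, was at 15.1 and 21.8 (0.53, 0.47 to 0.59). Enteroendocrine genes, some of which the rule limits, summed to 1.36 and 3.22, and Neurog3 made up most of the Taf4 KO sum. Of the 2 tested, Neurog3 was 2-fold higher (2.36, found in 16 control and 8 Taf4 KO members) and Sct 2-fold lower (-1.21). Of 10 tested immediate early genes none was 2-fold higher and 1, Jun, was 2-fold lower (1.93 and 0.85, -0.96 on the log2 scale with Tff3 at 25 or more). Tuft markers summed to 0.04 and 0.17, MHC class II genes to 0.03 and 0.01 and markers of cells outside the epithelium to 0.02 and 0.02, with no gene at the 100 UMIs needed for a ratio. Transcripts that accompany damaged cells (Malat1, Gm42418, AY036118 and Lars2) summed to 73.5 and 90.5, with 4 of 4 ratios above 0 and a median of 0.44, and their part in the other differences was not tested.

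The most extreme ratios over all genes were partly shared with the other cells of the libraries. Of the 121 genes at least 2-fold higher in the Taf4 KO members, 65 were also at least 2-fold higher in the non-members with 2000 UMIs, and of the 91 lower genes 40 were also lower there. The share of all tested genes at 2-fold in the non-members was not counted, so these overlaps have no background beside them. Gm10260 had 2086 UMIs in 185 of 188 control members and none in the Taf4 KO members. This bounds its log2 ratio at -8.74 or lower against a floor of 3 counts, and the non-members had 6.61 and 0.005 per 10000. Bex1, a small adaptor protein, had 1159 UMIs in 151 control members and none in the Taf4 KO members (bound -7.89), and the non-members had 4.61 and 0.03. Both differences were thus found in the members and in the other cells of the libraries. Cyp2e1, a cytochrome P450 enzyme, had none in the control and 100 UMIs in the Taf4 KO members (at least 54.2-fold higher), of which 1 cell held 63.0%. Ly6a, a surface protein of regenerating epithelium, was at 0.20 and 1.39 (2.78, 2.39 to 3.19) in the members and at 0.06 and 0.56 in the non-members. AA467197 was lower in the members, 1.15 and 0.06 (-4.26, -5.23 to -3.44), while the non-members had 0.77 and 0.68 (-0.18). Hist1h1b, a histone made in S phase, was at 0.36 and 0.02 (-4.19, -6.09 to -2.80).

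Ranked against the other deep cells of their own library, the members had goblet products and defensins among their leading genes. Among the 10 leading genes of the control members were Spdef (27.0-fold), Muc2 (22.7-fold), Spink4 (22.1-fold), Ang4 (28.5-fold) and Ramp1, a receptor component (23.5-fold). Among those of the Taf4 KO members were Zg16 (17.5-fold), Ern2 (11.6-fold), Muc2 (9.71-fold), Fcgbp (9.22-fold), the channel-like Ano7 (9.08-fold) and Cracr2a (9.47-fold). The folds of the 2 libraries are not on one footing, since lysozyme cells with the same products are 67 of the 1931 control non-members and 79 of the 838 Taf4 KO non-members. Defa21, Defa22, Defa30, Gm7861 and Defa24 were also among the 10 in the control, and 1 cell held 89.4%, 87.3%, 47.9%, 43.8% and 20.0% of their control UMIs. Clca1 (17.2-fold), Defa26 (14.3-fold), Sprr1a (12.1-fold) and Gm1123 (9.20-fold) were also among the 10 in the Taf4 KO library. Of their Taf4 KO UMIs 1 cell held 73.0%, 32.1%, 97.4% and 11.1%, and of those of Zg16 44.7%.

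Taf4 itself was too rare in the members to check the label. It had 19 UMIs in the control members (0.06 per 10000) and 17 in the Taf4 KO members (0.08), a log2 ratio of 0.54 (-0.49 to 1.56). Its paralog Taf4b had 6 and 5 UMIs (0.44, -1.61 to 2.41). A count per gene at the 3′ end also cannot tell recombined from intact Taf4 transcripts.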

How the data were processed

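Libraries were made from live-sorted single cells on the 10X platform. Per the labels' processing notes, bcl2fastq 2.17.1.14, Cell Ranger 3.1 and Seurat 3.1.4 were used with mm10. The authors deposited raw UMI counts for each gene in each cell. Their methods kept cells in which 200 to 6000 genes were detected and mitochondrial reads stayed below 15%. Each library had 1 file and 1 group, and genes listed for 1 library only were taken as 0 in the other. Intervals were computed with scipy 1.17.1 in Python 3.11.15, on tables read with pandas 2.3.3 and numpy 2.4.6, and figures were drawn with matplotlib 3.10.9.

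UMIs were summed over members and scaled to 10000. A ratio needed 100 UMIs over both libraries and 2-fold to be counted. Levels have exact Poisson, ratios exact conditional binomial and shares Clopper-Pearson intervals, differences of shares the square-and-add form, all at 95%. A library at 0 was set to a floor of 3 counts over its members, giving a bound. Thinning drew 2000 UMIs from each cell in a single random draw. Rare genes keep few UMIs after it, so their thinned ratios carry more counting error. The steps were tested on simulated data. No doublet caller was run, and an alternative left out members of mixed identity. Named genes were those of the gene lists, the 10 highest and 10 lowest ratios, the 10 leading genes of each library, Taf4 and Taf4b. Apoa1 cells were non-members with 10 or more Apoa1 UMIs per 10000 and below the Tff3 and Lyz1 limits. The members, lists and tests were chosen with earlier results of these data known. Guca2a, Ceacam10 and Myl7 were named after their values were seen.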

Additional observations from a re-analysis of the deposited data

Results flagged for a closer look

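In 6 genes the Taf4 KO to control ratio was at least 2-fold lower in the members and at least 2-fold higher in the other cells with 2000 UMIs, and the difference between the 2 sets was not tested. Defa22 had a bound of -6.05 in the members, where 9 control cells and no Taf4 KO cell had a UMI, and 6.15 in the other cells. Defa21 had -3.03 and 6.19, and in the members 1 cell held 89.4% of its control and 1 cell all of its Taf4 KO UMIs. Ly6d, a surface protein, had -4.47 and 3.05, with 58.3% of the control members' UMIs in 1 cell and 71.8% of those of the other control cells in 1 cell. Myl7, a myosin light chain, had -1.72 and 2.45, with 61.7% of the control members' UMIs in 1 cell. Ceacam10, a cell adhesion molecule, had -1.39 and 1.31, with 53.1% in 1 cell. Apoa1, the apolipoprotein of enterocytes, had -1.31 and 1.70, with 31.2% in 1 cell of 25 that had a UMI.

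Cells under 2000 UMIs took no part in the comparisons. Of these, 122 of 890 Taf4 KO cells (13.7%, 11.5 to 16.1) and 24 of 444 control cells (5.41%, 3.49 to 7.94) passed the other limits of the rule, a difference of 8.30 points (4.95 to 11.4). Their median depth was 630.5 UMIs in the Taf4 KO and 916 in the control library. The shallow cells that did not pass had 25.9 Tff3 UMIs per 10000 in the Taf4 KO and 17.5 in the control library, and the part of this background in the difference was not tested. Muc2 was at 6.14 per 10000 in the passing Taf4 KO and 2.18 in the passing control cells, against 0.70 and 0.19 in the other shallow cells, and Spink4 was at 104 and 75.4, against 27.8 and 13.5.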

How the results depend on the processing

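No paired analysis was possible because each condition had 1 library and no test was made. The difference in the share of members stayed within its interval under all 7 alternatives, from -1.32 points with Lyz1 under 10 to 1.12 with Tff3 at 100 or more. The number of genes at least 2-fold higher or lower stayed within 1.5 times of 121 and 91 except with another gene minimum or after thinning. It was 422 and 264 with a gene minimum of 30 UMIs, 33 and 19 with 300, and 431 and 445 with cells thinned to 2000 UMIs. With ratios centred on the median it was 93 and 108, and without the top cell of each gene 108 and 124. With the reduced total, which left out goblet product, mitochondrial and ribosomal protein genes, it was 100 and 104. Of the goblet products 6 or 7 were at least 2-fold higher in every alternative. The median log2 ratio of the goblet products stayed above 1 under every alternative run. It was 1.51 with Tff3 at 25 or more, 1.08 at 100 or more, 1.12 with Lyz1 under 10 and 1.33 with 5000 UMIs. Without members of mixed identity (Apoa1 at 10 or defensins at 20 or more) it was 1.65. It was 1.11 with equal weight per cell, 1.08 thinned, 1.26 with the reduced total, 1.23 centred and 1.37 without the deepest cells. Without the top cell of each gene, an alternative added after seeing the data, it was 1.29. The p53 median was between 0.55 and 0.96. Of 1490 alternatives over 115 genes, 1187 kept the value within its interval. The sign changed in 51, of which 35 belong to ratios whose interval covered 0 and 16 to ratios whose interval did not. Of 54 genes at 2-fold, 21 fell short of it in at least 1 alternative, and 60 genes moved by over 1.5 times in at least 1. After thinning, the sign changes in ratios with an interval off 0 were Ern2 (-0.20), Slc12a8 (-0.55), Defa21 (0.25), Lgr5, Pcna and Hmmr (0.18 each). With Lyz1 under 40 they were Defa21 (0.99) and Defa22 (1.94). Without members of mixed identity they were Defa24 (-0.47) and Gm1123 (-0.020). With Tff3 at 100 or more they were Gdf15 (-0.44), Mki67 (0.37) and Gm1123 (-0.058), with 25 or more Ly6d (0.47), with 5000 UMIs Defa30 (-0.16), and with equal weight Ddit3 (0.041). The cause was not tested. Depth limits rare transcripts such as Taf4 and Clca1, whose intervals span over 2 log2 units. Thinning leaves fewer UMIs still, and thinned ratios are given without an interval.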
